A study of Oryctolagus cuniculus with 134 samples.

Results

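The aortic valve (AoV) and the mitral valve (MV) of rabbits on standard chow were compared within the same animals. All libraries that the labels give as Control and as AoV or MV were taken, and the valves of a rabbit were paired by the animal number in the library name. This gave 13 of the 134 libraries of the series, 7 of AoV and 6 of MV, with both valves from 6 rabbits, named A to F here, and an AoV alone from a further rabbit, G.

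The aortic valve closes the outlet of the left ventricle towards the aorta, and the mitral valve separates the left atrium from the left ventricle. AoV and the pulmonary valve (PV) are arterial valves that form in the outflow tract of the embryonic heart, whereas MV and the tricuspid valve (TV) are atrioventricular valves that form at the atrioventricular canal. Leaflets of either kind are built by interstitial cells embedded in collagen, proteoglycans and elastic fibres, and they are covered by endothelium. The mitral leaflet is continuous with atrial muscle at its base and is held by tendinous cords, while the aortic leaflet is anchored in the wall of the aortic root.

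The rabbits were male New Zealand White animals, 12 weeks old when the 16-week protocol started. The control group (Ctrl) ate chow and received neither cholesterol, lard, vitamin D2 nor irradiation. RNA of each dissected valve gave 1 library from 10 ng of total RNA. The counted read pairs of a library numbered 13978094 to 23041138 (median 16424301). Rabbits A, B and C had both libraries on plate 1 and rabbits D and F on plate 2, whereas those of rabbit E were on different plates. Marker genes of the valve interstitial cell were present in every library, with TBX20, a transcription factor of valve mesenchyme, between 361 and 547.5 CPM (read pairs scaled to a common library size) in AoV and between 399 and 554 CPM in MV of the 6 pairs.

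The dissected leaflets differed in the levels of marker genes of heart muscle and endothelium. The scores used here are the mean log2 CPM of a list's genes. The score of 34 heart muscle genes ran from 2.39 to 6.61 in AoV and from 2.90 to 5.42 in MV, and in rabbits F (6.61) and D (5.29) the score of AoV lay above that of the same rabbit's MV. In the other 4 pairs the score was higher in MV. The score of 13 atrial muscle genes, TBX5 among them, was lower in AoV in all 6 pairs (2.22 to 3.27 against 3.12 to 4.26). The score of 22 endothelial genes was 3.06, 3.17 and 3.80 in MV of rabbits A, C and E but 5.40 to 5.56 in B, D and F, and in AoV of the 6 pairs it was 2.95 in rabbit C and 4.24 to 4.94 in the others, with 5.32 in rabbit G. PECAM1, the endothelial adhesion molecule, showed the same split, with 18.6, 19.0 and 26.8 CPM in MV of A, C and E against 424 to 455 CPM in the other 3. The melanocyte markers TYR, DCT and PMEL stayed under 1 CPM in all paired libraries, with MLANA up to 2.30 CPM, as did the Schwann cell marker SOX10, while CDH19 reached 66.4 CPM in AoV and 23.7 CPM in MV. In bulk tissue, fewer cells of a type and less RNA per cell cannot be told apart.

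**Figure D1:**
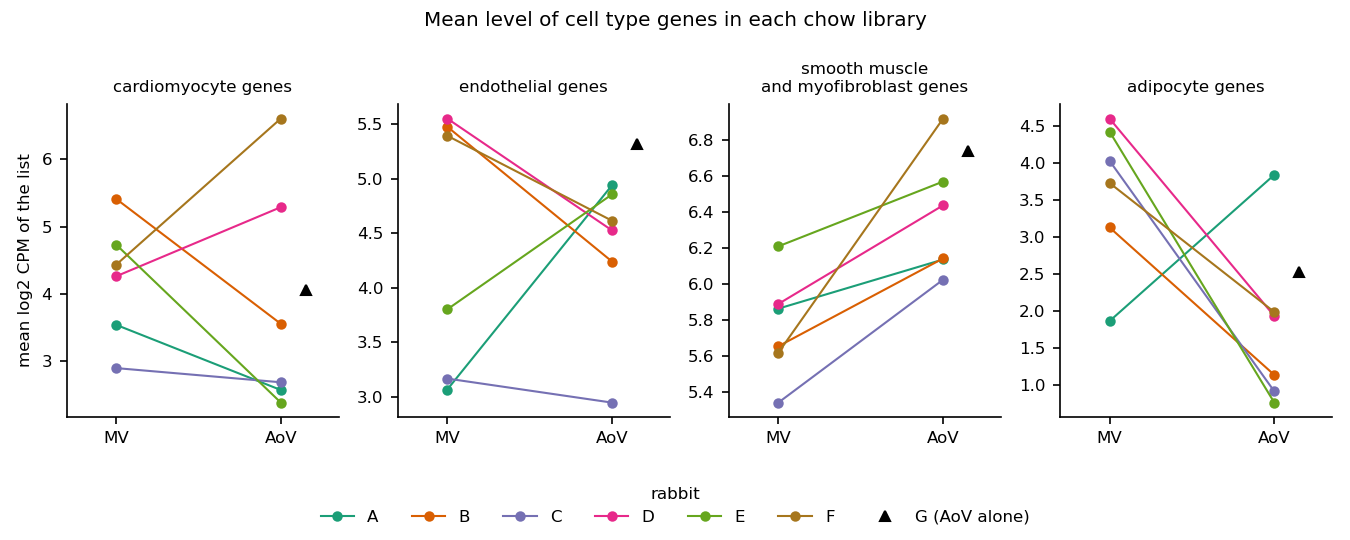
Each panel plots the mean log2 CPM of a list of cell type genes in MV and AoV, with a line for each of rabbits A to F and a triangle for rabbit G, which had no MV library. Heart muscle genes were higher in AoV than in MV in rabbits F (6.61 in AoV) and D (5.29 in AoV) and lower in the other 4, endothelial genes were low in MV of rabbits A, C and E (3.06 to 3.80), and smooth muscle genes were higher in AoV in all 6 pairs.

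Differential expression was tested by edgeR with the rabbit as a block, and a gene was called a differentially expressed gene (DEG) if it passed both a false discovery threshold of 0.05 (Benjamini-Hochberg adjusted p) and a change of more than 1.5-fold. Of 14005 genes tested, 1048 were DEGs (7.48%), 830 higher in AoV (5.93%) and 218 lower (1.56%), while the median log2 fold change of all genes was -0.02. The higher DEGs had a median log2 fold change of 1.37 and the lower DEGs of -1.19. Most of the higher DEGs overlapped between the valves, since the AoV libraries all lay above the MV libraries in 64 of the 830 and below them in 94 of the 218 lower ones. Over all genes tested, 97 lay above in every library (0.693%) and 143 below (1.02%). All 6 pairs were higher in AoV in 791 of the higher DEGs and lower in 212 of the lower ones, against 12.3% and 9.3% of all genes.

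The number of DEGs depended on single rabbits. It was 77 without rabbit F, 78 without B, 162 without E, 454 without C, 758 without A and 1372 without D, and it was 163 when the rabbit was not used as a block, with 82 higher and 81 lower. The median pair difference of the 830 higher DEGs was 2.11 in rabbit A, 1.90 in F, 1.47 in B, 1.02 in E, 0.83 in C and 0.55 in D, on the log2 scale. Rabbits A and E had the pair of highest MV libraries in 67.1% of the 830 higher DEGs and the pair of highest AoV libraries in 84.6%, against 14.1% and 31.0% of all genes tested. For many of these genes the same rabbits were thus high in both valves. With the heart muscle score as a covariate 371 genes were called, of which 364 were among the 1048, and with the endothelial score 2921 were, of which 1047 were.

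**Figure D2:**
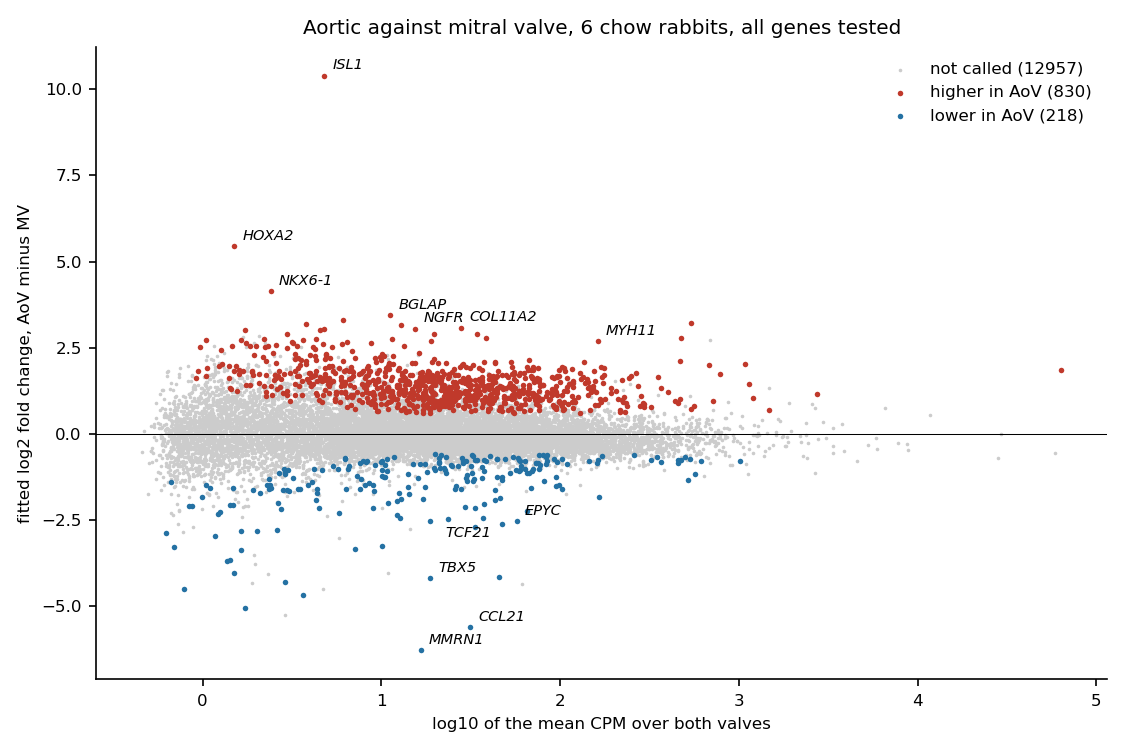
Each point is a gene, placed by the log10 of its mean CPM over both valves and its fitted log2 fold change between AoV and MV in 6 rabbits, with the 830 DEGs higher in AoV in red and the 218 lower in blue. ISL1, with 0 counts in every MV library, is drawn at a fitted value that depends on the prior count, and MMRN1 and CCL21 are the lowest labelled points.

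Transcription factors of heart and body patterning were among the genes that separated the valves in every library. ISL1 (ENSOCUG00000027605), the factor of the second heart field that builds the outflow tract, had 9.84, 9.56, 10.7, 10.2, 9.55 and 7.60 CPM in AoV of rabbits A to F and 9.95 CPM in rabbit G. No read pair of it was counted in any of the 6 MV libraries. At the limit of 3 counts that a count of 0 allows in a library, AoV was at least 57.8-fold higher (edgeR adjusted p = 0.0152). HOXA2 (ENSOCUG00000015205), a homeobox gene of the hindbrain and the neural crest, had 2.07, 3.07, 4.84, 1.91, 3.98 and 1.82 CPM in AoV and from 0 to 0.183 CPM in MV, with the valves apart. Its 303 counts in AoV against 7 in MV are a ratio of 47.6 per read pair sequenced (95% interval 22.8 to 119 from counting error only, edgeR adjusted p = 0.0109). HAND1 (ENSOCUG00000011099), a factor of ventricle and outflow tract development, was 4.43 ± 1.59 CPM in AoV and 0.728 ± 0.308 CPM in MV (SD, n = 6), and its lowest AoV library, 2.56 CPM, was above its highest MV library, 1.10 CPM.

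TBX5 (ENSOCUG00000012715), the T-box factor of the atria and the left ventricle, showed the opposite pattern. It had 39.5, 38.3, 27.3, 30.7, 46.8 and 28.4 CPM in MV of rabbits A to F and 0.0827, 2.38, 0.991, 2.51, 3.64 and 3.24 CPM in AoV (log2 fold change -4.19, SE 0.49, edgeR adjusted p = 0.00784). TCF21 (ENSOCUG00000017761), a factor of epicardium-derived fibroblasts, lay between 44.6 and 100 CPM in MV and between 4.88 and 16.2 CPM in AoV (-2.45, SE 0.19, edgeR adjusted p = 0.00121). TBX18, another epicardial T-box factor, was 64.9 ± 12.1 CPM in MV and 29.4 ± 13.4 CPM in AoV (-1.25, SE 0.21, edgeR adjusted p = 0.0193). UPK3B, a mesothelial membrane protein, was higher in AoV in all 6 pairs at low levels (3.16 ± 3.83 against 0.303 ± 0.262 CPM, 3.02, edgeR adjusted p = 0.0229), so that of 7 tested epicardial and mesothelial genes 1 was higher and 2 were lower. It lost its call without B or F (edgeR adjusted p up to 0.0644) and did not pass the filter without C or E. WT1, a further epicardial factor, did not follow TCF21 and TBX18, with mean levels of 1.44 CPM in AoV and 1.49 CPM in MV (-0.04, edgeR adjusted p = 0.95). EBF2 (ENSOCUG00000011972), a helix-loop-helix factor known from brown fat and bone, was 31.9 ± 11.0 CPM in MV and 5.61 ± 2.30 CPM in AoV (-2.53, SE 0.15, edgeR adjusted p = 0.000327). For TBX5, TCF21, TBX18 and EBF2 the valves did not overlap.

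**Figure D3:**
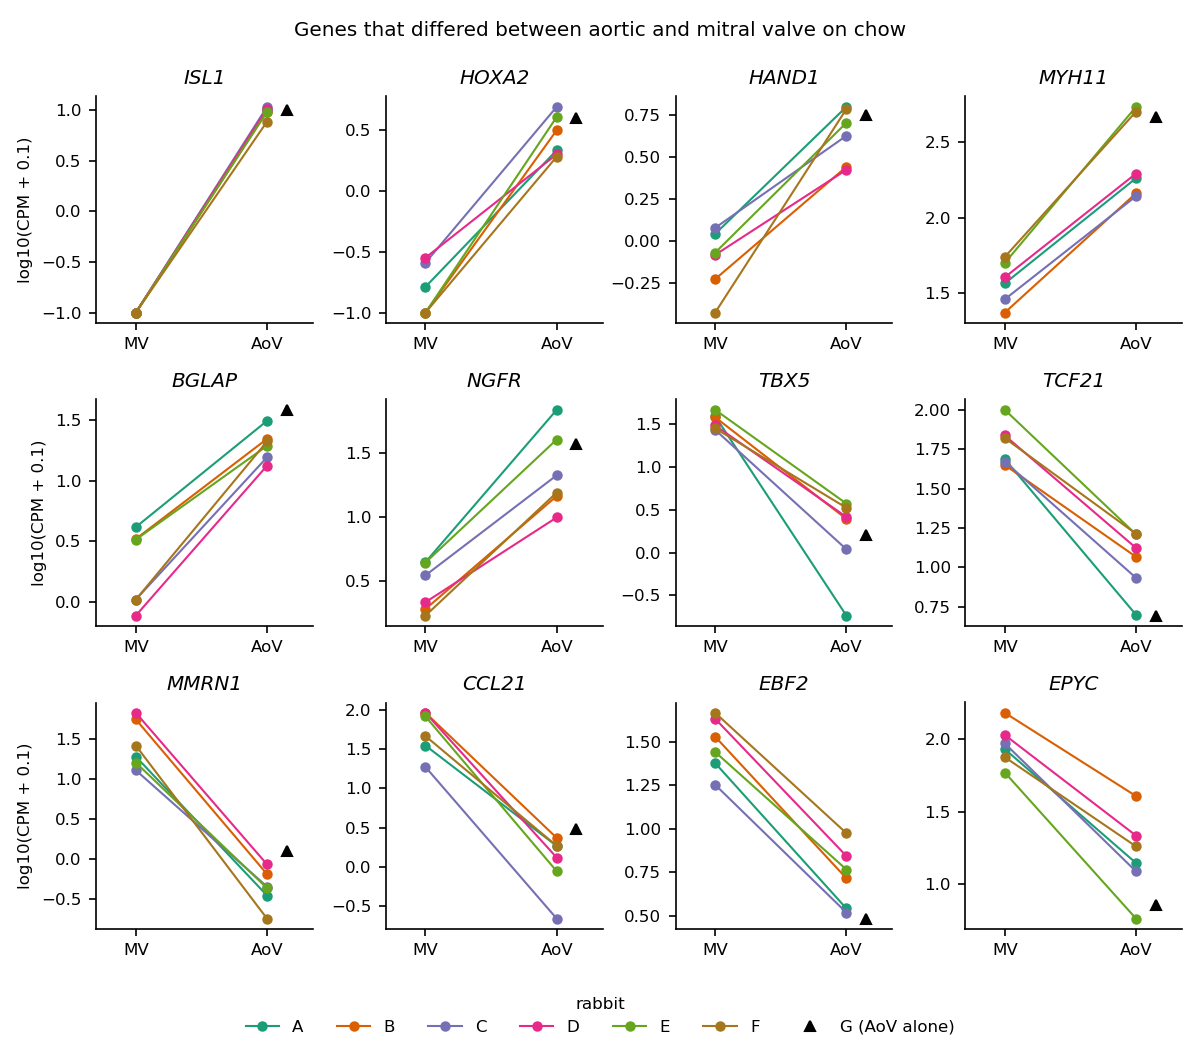
Levels of 12 genes in MV and AoV on the log10(CPM + 0.1) scale, with a line for each of rabbits A to F and a triangle for rabbit G. ISL1, HOXA2, HAND1, MYH11, BGLAP and NGFR were higher in AoV and TBX5, TCF21, MMRN1, CCL21, EBF2 and EPYC lower, in each case with every AoV library on the same side of every MV library of the pairs.

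Over all genes tested, 5.93% were called higher and 1.56% lower in AoV, against which the counts of each list are to be read. Counted over whole lists, 5 of 19 tested outflow tract regulators were higher in AoV and 1 was lower, with a median log2 fold change of 0.23, which is the same with ISL1 at its bound. Of 24 atrioventricular canal regulators 3 were higher and 3 lower (median 0.09), and of 13 homeobox and other positional factors 1 was higher and 2 were lower (median 0.27). Besides ISL1 and HAND1, the higher outflow genes were GATA4 (0.82), the signalling peptide gene EDN1 (1.48) and its receptor EDNRA (0.68), and the lower gene was the semaphorin and VEGF co-receptor NRP1 (-0.87). PRRX1, a homeobox factor of mesenchyme, was 279.2 ± 36.3 CPM in AoV and 140 ± 25.2 CPM in MV (1.001, SE 0.11, edgeR adjusted p = 0.00673), with no overlap. NR2F2, a nuclear receptor of atrial identity, was lower in AoV (-0.82, SE 0.15, edgeR adjusted p = 0.0236). TBX20 (-0.23), TBX2 (0.86), SOX9 (0.66), HAND2 (0.39) and NKX2-5 (-0.69) did not pass. With 1 rabbit left out, calls were lost for HAND1 without B (edgeR adjusted p = 0.0534), for GATA4 and NR2F2 without B, E or F (up to 0.0655 and 0.0845), for TBX18 without B, E or F (up to 0.0719), for EDN1 without F (0.0585), and for EDNRA without each rabbit but A (up to 0.124).

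Collagens that were higher in AoV included 3 of cartilage and 1 of basement membrane. COL11A2 (ENSOCUG00000016497), a chain of the fine fibrils of cartilage, had 142, 26.3, 32.5, 11.9, 52.4 and 36.2 CPM in AoV of rabbits A to F and 8.00, 2.09, 5.51, 2.44, 11.9 and 2.66 CPM in MV (3.08, SE 0.32, edgeR adjusted p = 0.00441). It was higher in AoV in each rabbit, but AoV of rabbit D was at the level of MV of rabbit E. COL9A2, another cartilage collagen, was 32.4 ± 25.9 and 5.56 ± 5.17 CPM (2.69, SE 0.26, edgeR adjusted p = 0.00344), and COL4A3, of specialised basement membranes, was 84.1 ± 31.3 and 29.8 ± 12.5 CPM (1.53, SE 0.25, edgeR adjusted p = 0.0181). COL6A6 was the only collagen called lower in AoV, with 263.7 ± 55.9 against 469 ± 99.5 CPM (-0.83, SE 0.15, edgeR adjusted p = 0.0225). Over the list, 7 of 29 collagens were higher in AoV and 1 was lower (median 0.34), and COL16A1 (2.00), COL8A2 (1.53), COL2A1 (1.82) and COL1A1 (1.16) completed the higher ones. COL1A1 was higher in AoV within each rabbit but ranged from 929 to 7673 CPM in AoV and from 528 to 3736 CPM in MV, and its partner COL1A2 (-0.16, edgeR adjusted p = 0.42) and COL3A1 (-0.11, edgeR adjusted p = 0.571) did not pass. Without rabbit A, B, C, E or F, COL1A1 and COL2A1 lost their calls (edgeR adjusted p up to 0.114 and 0.116), as did COL4A3 without B or E (up to 0.0686) and COL6A6 without B, C or F (up to 0.0805).

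Among cartilage and tendon genes, 6 of 25 were higher in AoV and 1 was lower (median 0.34). CILP, a cartilage matrix protein, was 197.5 ± 86.0 CPM in AoV and 64.8 ± 23.6 CPM in MV (1.60, SE 0.23, edgeR adjusted p = 0.0152), with the valves apart, and ACAN, the large proteoglycan of cartilage, was 378 ± 164 and 205 ± 89.2 CPM (0.89, SE 0.13, edgeR adjusted p = 0.0152), with overlap. THBS4, an adhesive protein of tendon, was also higher (1.54), and SOX9, the master factor of cartilage, was higher in each of the 6 pairs without passing (0.66, edgeR adjusted p = 0.0917). The lower gene was KERA, a small leucine-rich proteoglycan of cornea and tendon. CILP and ACAN lost their calls without rabbit B or F (edgeR adjusted p up to 0.0585).

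Proteoglycans moved both ways, with 5 of 31 higher in AoV and 3 lower (median 0.04). EPYC (ENSOCUG00000013389), a small leucine-rich proteoglycan known from growth cartilage, had 85.7, 152.9, 93.8, 107, 58.9 and 75.3 CPM in MV and 13.8, 40.4, 12.1, 21.4, 5.63 and 18.0 CPM in AoV, without overlap (-2.54, SE 0.21, edgeR adjusted p = 0.00163). The other lower ones were KERA, at 37.6 to 57.9 CPM in MV and 1.66 to 29.2 CPM in AoV (-2.16, SE 0.52, edgeR adjusted p = 0.042), and PODN (-0.79). The higher ones were ACAN, the syndecans SDC3 (1.47) and SDC1 (1.21), CSPG4 (2.08) and the basement membrane proteoglycan HSPG2 (1.02). The small leucine-rich proteoglycans PRELP (0.90, edgeR adjusted p = 0.0632) and FMOD (0.39, edgeR adjusted p = 0.101) were above MV in all 6 pairs and did not pass. VCAN, the versican core protein of the valve spongiosa, was 7129 ± 1698 CPM in AoV and 8373 ± 951 CPM in MV and did not pass (-0.26, SE 0.14, edgeR adjusted p = 0.262). SDC3 lost its call without B, E or F (edgeR adjusted p up to 0.0735) and SDC1 without each rabbit but D (up to 0.11).

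Of the elastic fibre genes, 4 of 21 were higher in AoV and 2 were lower (median 0.01). FBN2, the fibrillin of developing elastic tissue, was 254 ± 78.7 CPM in AoV and 91.1 ± 22.7 CPM in MV, without overlap (1.47, SE 0.19, edgeR adjusted p = 0.0113), while FBN1, the fibrillin of adult tissue, was 1286 and 1644 CPM on average and did not pass (-0.40, edgeR adjusted p = 0.18). LTBP2 (1.44) and the crosslinking enzymes LOXL3 (0.93) and LOXL1 (1.52) were the other higher genes. EFEMP1, a fibulin, was 302 ± 171.1 CPM in AoV and 742 ± 314 CPM in MV (-1.33, SE 0.20, edgeR adjusted p = 0.0159). The largest negative log2 fold change of the lists belonged to MMRN1 (ENSOCUG00000006098), a multimerin of platelets and endothelium, which had 19.0, 55.7, 12.8, 67.3, 16.0 and 26.2 CPM in MV and 0.248, 0.545, 0.350, 0.753, 0.331 and 0.0791 CPM in AoV of rabbits A to F (-6.28, SE 0.32, edgeR adjusted p = 0.00026). It stands in this list by its gene family, and it is also a known marker of lymphatic endothelium. EFEMP1 lost its call without B (edgeR adjusted p = 0.0595), and LTBP2 and LOXL3 without B, E or F (up to 0.0806).

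Genes of mineralization were compared because calcification is the common disease of the aortic valve. BGLAP (ENSOCUG00000025958), the gene of the bone protein osteocalcin, had 30.9, 21.9, 15.4, 13.2, 19.2 and 20.9 CPM in AoV of rabbits A to F and 4.03, 3.20, 0.944, 0.670, 3.16 and 0.942 CPM in MV (3.44, SE 0.31, edgeR adjusted p = 0.00236). Every AoV library was above every MV library, rabbit G with 38.2 CPM included. BMP6, a bone morphogenetic protein, was 53.8 ± 14.6 and 20.5 ± 5.26 CPM, again without overlap (1.39, SE 0.13, edgeR adjusted p = 0.00236). SOST, the Wnt inhibitor sclerostin, was higher (1.49) and TNFRSF11B, the decoy receptor osteoprotegerin, lower (-0.65, 136 ± 43.9 against 205 ± 30.0 CPM), which made 3 of 23 genes higher and 1 lower (median 0.19). RUNX2, the bone master factor, was at 0.0791 to 1.28 CPM in AoV and 0.276 to 1.22 CPM in MV (-0.50, edgeR adjusted p = 0.532), ALPL was 5.98 ± 5.30 and 3.85 ± 2.02 CPM (0.36, edgeR adjusted p = 0.418), and the inhibitor MGP was lower in AoV in each pair without passing (-0.70, edgeR adjusted p = 0.0947). SOST and TNFRSF11B lost their calls without B, C, E or F (edgeR adjusted p up to 0.0797 and 0.0935), and TNFRSF11B also without A, where its fold was under 1.5 (log2 fold change -0.54). Among matrix proteases, 2 of 28 were higher and 2 lower, the latter being ADAMTS19 (55.3 ± 10.6 against 134 ± 47.3 CPM, -1.24, SE 0.20, edgeR adjusted p = 0.0175), with the valves apart, and ADAMTS9 (-0.99). ADAMTS19 lost its call without B, E or F and ADAMTS9 without B (edgeR adjusted p up to 0.0626 and 0.0614).

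**Figure D4:**
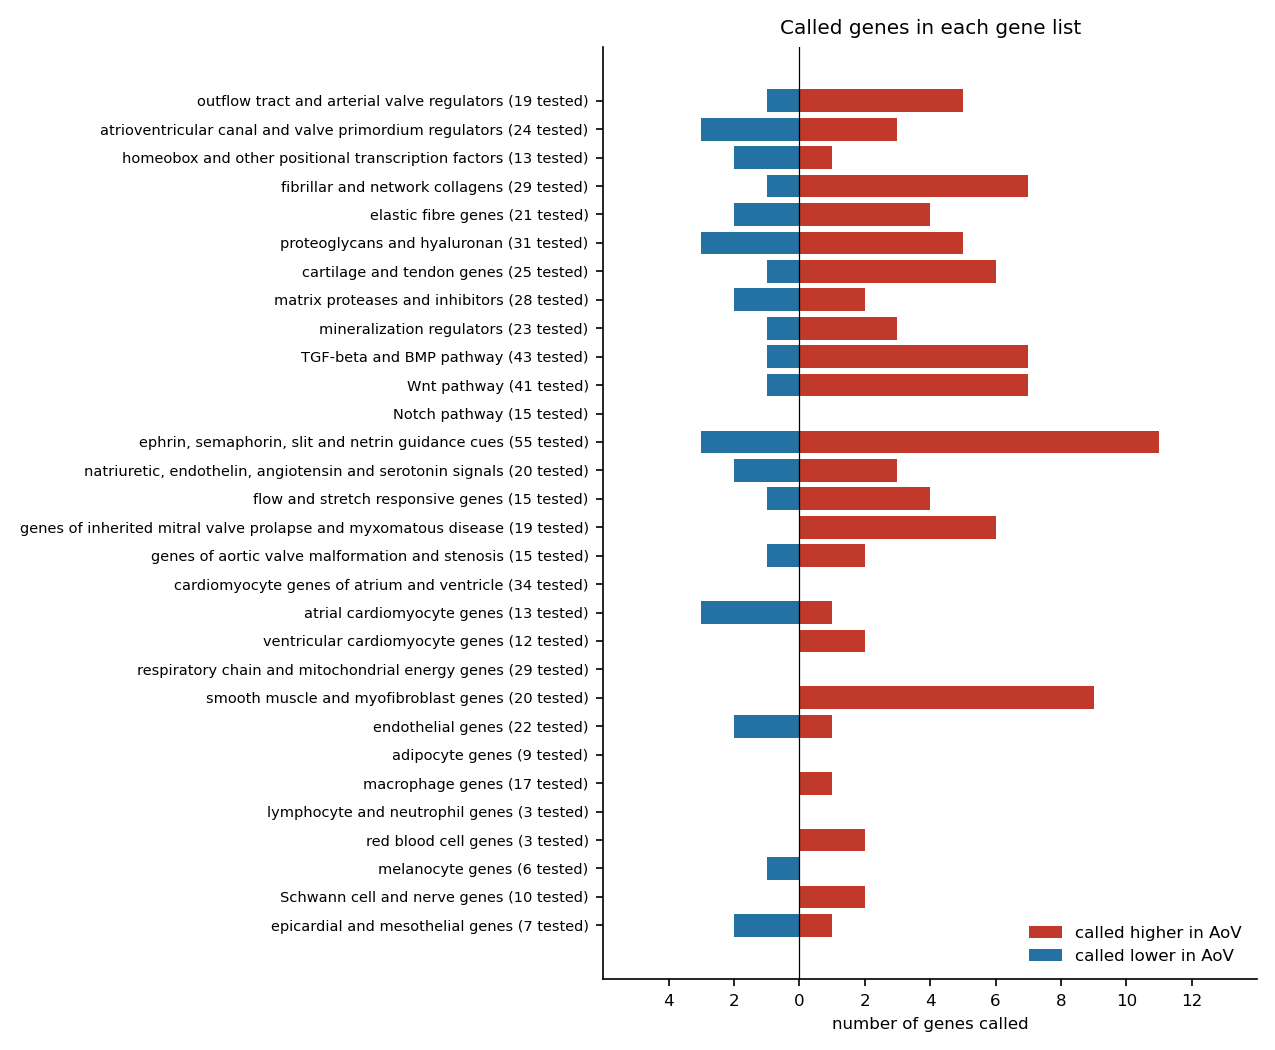
Bars give the number of genes called higher (right, red) and lower (left, blue) in AoV than in MV in each of 30 gene lists, with the number of genes tested in brackets. Smooth muscle genes had 9 higher and 0 lower of 20, guidance cues 11 and 3 of 55, and the Notch, heart muscle and respiratory chain lists had no called gene.

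Signalling genes that passed were mostly higher in AoV, as were 79.2% of all DEGs. In the TGF-beta and BMP pathway, 7 of 43 genes were higher and 1 was lower (median 0.14). Among the ligands, BMP6 and GDF7 (2.52) were higher and BMP5 lower (-0.91), while BMP2 (0.52) and BMP4 (0.26) did not pass. The co-receptor ENG (1.67), the inhibitors SMAD7 (1.27), NBL1 (1.56) and CHRDL2 (1.96) and the binding protein LTBP2 were the further higher genes, and none of the type I and type II receptors was called. In the Wnt pathway, 7 of 41 were higher and 1 lower (median 0.04). These were the receptors FZD9 (2.21), FZD7 (1.54), FZD1 (1.51) and ROR2 (0.98), the R-spondin receptor LGR6, the secreted inhibitors DKK2 (0.98) and SOST, and on the lower side the ligand WNT2B (-0.89). LGR6 had 2.01 to 11.0 CPM in AoV and 0.244 to 2.14 CPM in MV (2.49, SE 0.30, edgeR adjusted p = 0.00784), and it kept its call without each of the rabbits in turn. SMAD7 lost its call without B (edgeR adjusted p = 0.0533), FZD9 without E or F (up to 0.0585), FZD7 without B or F (up to 0.0626), GDF7, ENG and NBL1 without B, E or F (up to 0.0779), and DKK2 without B, C, E or F (up to 0.0686).

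No Notch pathway gene of 15 was called by edgeR (median 0.15), where NOTCH3 (0.84, edgeR adjusted p = 0.13) and HES1 (-0.35, edgeR adjusted p = 0.11) had the same direction in all 6 pairs. Of 55 ephrin, semaphorin, slit and netrin genes, 11 were higher in AoV and 3 lower (median 0.29). The higher ones included 4 plexins, which are semaphorin receptors, namely PLXNB3 (1.67), PLXNA3 (1.20), PLXNB1 (1.31) and PLXNA1 (1.38), and the netrin receptor UNC5B (1.59). The lower ones were the semaphorin SEMA3A (-1.42), its co-receptor NRP1, at 56.8 to 104 CPM in AoV and 105.6 to 185.5 CPM in MV, and the ephrin receptor EPHA4 (-1.94). Several of the higher guidance genes had their highest values in rabbits A and E in both valves, as UNC5B with 223 and 220 CPM in AoV and 55.8 and 76.9 CPM in MV, against 36.2 to 75.8 and 12.0 to 35.5 CPM in the other 4. PLXNB3 lost its call without F (edgeR adjusted p = 0.0537), PLXNA3 without B or F (up to 0.0621), and UNC5B and SEMA3B without B, E or F (up to 0.0675).

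Of 20 genes of natriuretic, endothelin, angiotensin and serotonin signalling 3 were higher in AoV and 2 lower (median 0.04), and 10 of them lay on each side of 0. EDN1, the endothelin ligand, was higher in AoV within every rabbit (12.6, 38.6, 11.7, 62.7, 27.3 and 102 CPM against 3.71, 18.6, 3.52, 37.1, 5.34 and 40.5 CPM, 1.48, SE 0.22, edgeR adjusted p = 0.0152), although the valves overlapped widely. Of the endothelin receptors, EDNRA was 16.7 ± 3.15 and 10.36 ± 1.5 CPM (0.68, SE 0.16, edgeR adjusted p = 0.0368), and EDNRB was 8.43 ± 3.603 and 26.5 ± 13.7 CPM (-1.53, SE 0.32, edgeR adjusted p = 0.0308). EDNRB, EDN1 and EDNRA lost their calls without rabbit F (edgeR adjusted p = 0.0886, 0.0585 and 0.124), EDNRB also without B, C or E (up to 0.106) and EDNRA without B, C, D or E (up to 0.1). The serotonin receptor HTR4 was lower in AoV (14.9 ± 4.12 against 30.2 ± 9.56 CPM, -0.99, SE 0.17, edgeR adjusted p = 0.0201, lost without B, C, E or F, up to 0.0813), and HTR2B, the serotonin receptor linked to drug-induced valve disease, was near 1 CPM or below on average and did not pass (1.09, edgeR adjusted p = 0.163). Of 15 flow and stretch responsive genes, 4 were higher, among them CCN1 (302 ± 51.2 against 163 ± 30.9 CPM), CCN2 (949 ± 224 against 491 ± 112 CPM) and the channel TRPV4 (1.498), and the stretch channel PIEZO2 was lower (-1.04). CCN1 and CCN2 did not overlap between the valves, but like TRPV4 they lost their calls without B, E or F (edgeR adjusted p up to 0.0635, 0.0717 and 0.0751).

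Genes of inherited valve disease were counted by the valve they are known for. Of 19 genes of mitral valve prolapse and myxomatous disease, 6 were higher in AoV and 0 lower (median 0.22, against 5.93% of all genes higher), among them FBN2, LTBP2, ADAMTSL4 (1.398) and CHST14 (1.05). Of 15 genes of aortic valve malformation and stenosis, GATA4 and CACNA1C (0.80) were higher and ADAMTS19 was lower. ADAMTSL4 lost its call without B, E or F (edgeR adjusted p up to 0.0886), CHST14 without each rabbit but A (up to 0.101) and CACNA1C without each but D (up to 0.11).

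The smooth muscle list had the largest share of DEGs among lists with at least 10 tested genes, 9 of 20 (45%, against 7.48% of all genes), all higher in AoV (median 0.69). MYH11 (ENSOCUG00000013450), the smooth muscle myosin heavy chain, had 182.5, 145, 139, 195.9, 543.2 and 505 CPM in AoV of rabbits A to F and 36.5, 23.3, 28.6, 40.1, 50.0 and 54.7 CPM in MV, without overlap (2.69, SE 0.20, edgeR adjusted p = 0.00121). ACTA2, smooth muscle actin, was 199.4 ± 48.6 and 75.2 ± 28.0 CPM, also without overlap (1.47, SE 0.24, edgeR adjusted p = 0.0175), and MYOCD, the coactivator of smooth muscle genes, was 24.2 and 8.58 CPM on average (1.56). LMOD1 (1.66), SMTN (1.60), KCNMB1 (0.999), MYL9 (0.78), Tpm2 (0.73) and PDGFRB (0.65) completed the higher ones, while CNN1 and TAGLN, also in the list, were not analysed here because no gene of the tables carries the symbol. DES (-0.01) and CALD1 (0.26) did not pass. Of the 20 genes, 6 had a negative log2 fold change, the lowest at -1.51. The list score was higher in AoV in 6 of 6 pairs, with 6.02 to 6.92 against 5.34 to 6.21. ACTA2, LMOD1 and Tpm2 lost their calls without B, E or F (edgeR adjusted p up to 0.0644), whereas MYH11 kept its call in all 16 alternatives.

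Genes of other cell types were given the same count. None of the 34 heart muscle genes and none of 29 respiratory chain genes was called by edgeR (medians -0.37 and -0.23). Of 13 atrial genes 1 was higher and 3 were lower (median -0.34), the lowest being TBX5 (-4.19), given above as a patterning factor. The higher one was KCNA5, an atrial potassium channel (6.47 ± 2.22 against 2.95 ± 1.30 CPM, 1.13, edgeR adjusted p = 0.0327), higher in all 6 pairs, and it lost its call without each rabbit but D (edgeR adjusted p up to 0.101). Of the lower ones MYL4, the atrial myosin light chain, had 59.1, 216, 15.6, 13.3, 58.1 and 153.8 CPM in MV and 4.80, 0.594, 13.7, 2.16, 0.828 and 6.17 CPM in AoV (-4.14, SE 1.01, edgeR adjusted p = 0.0445), and it lost its call without A, B, E or F (edgeR adjusted p up to 0.137). NPPA, the atrial natriuretic peptide, was lower in AoV in 5 of 6 pairs without passing (-3.02, edgeR adjusted p = 0.157). MYL2, the ventricular light chain, reached 1014 CPM in AoV of rabbit F and 353.5 CPM in that of D, against 11.0 to 60.5 CPM in the other 4. Of 12 ventricular genes 2 were higher in AoV, among them HAND1 (2.59), also given above, and 0 were lower (median 0.40). Of 9 adipocyte genes none was called (median -2.16), and ADIPOQ (-4.02, edgeR adjusted p = 0.095) and CIDEC (-4.50, edgeR adjusted p = 0.093) were lower in AoV in 5 of 6 pairs, with rabbit A as the exception. The red blood cell gene ALAS2 (68.3 ± 64.9 against 8.42 ± 6.29 CPM) was called higher in AoV, and lost its call without A, B, C, E or F (edgeR adjusted p up to 0.105). Among macrophage genes STAB1 was higher (1.61), whereas CD68 (0.33, edgeR adjusted p = 0.193) and CD163 (0.61, edgeR adjusted p = 0.11) did not pass, and STAB1 lost its call without B or F (up to 0.0593).

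Of 22 endothelial genes 1 was higher in AoV and 2 were lower (median 0.13), and PECAM1 (0.32, edgeR adjusted p = 0.74), VWF (0.39, edgeR adjusted p = 0.64) and CDH5 (0.18, edgeR adjusted p = 0.842) did not pass. The higher one was ENG. CCL21 (ENSOCUG00000016448), a chemokine made by lymphatic endothelium that stands in no list, had 35.2, 92.4, 18.7, 92.2, 83.0 and 46.5 CPM in MV and 1.74, 2.23, 0.117, 1.21, 0.773 and 1.74 CPM in AoV (-5.62, SE 0.38, edgeR adjusted p = 0.000803). FLT4, the receptor of lymphangiogenic VEGF, was 19.2 ± 6.91 and 6.67 ± 5.85 CPM (-1.89, SE 0.48, edgeR adjusted p = 0.0496), and BMX (ENSOCUG00000017771), a tyrosine kinase of endothelium and endocardium, was 105 ± 33.2 and 25.1 ± 13.4 CPM (-2.24, SE 0.28, edgeR adjusted p = 0.00959). The lymphatic markers LYVE1 (-0.45, edgeR adjusted p = 0.245) and PROX1 (-0.28, edgeR adjusted p = 0.641) did not pass, with LYVE1 at 7.52 to 46.6 CPM and PROX1 at 23.7 to 89.8 CPM in MV. CCL21, MMRN1 and BMX kept their calls in all 16 alternatives, and FLT4 lost its call without each rabbit but A (up to 0.128).

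The remaining genes with the smallest p-values belong to no shared group. Higher in AoV were NGFR (ENSOCUG00000007635), the low-affinity nerve growth factor receptor known from nerve and neural crest, with 67.8, 14.4, 20.9, 9.79, 39.8 and 15.3 CPM against 4.34, 1.82, 3.41, 2.07, 4.31 and 1.61 CPM in MV (3.05, SE 0.24, edgeR adjusted p = 0.00121), and FGFR4, a fibroblast growth factor receptor, with 105 ± 62.5 against 25.8 ± 11.6 CPM (1.94, SE 0.15, edgeR adjusted p = 0.00121). Both were without overlap between the valves. NKX6-1 (ENSOCUG00000028183), a homeobox factor known from spinal cord and pancreas, had 421 counts in AoV and 26 in MV, a ratio of 17.8 per read pair sequenced (95% interval 12.0 to 27.6 from counting error only), and its levels were 1.26 to 11.0 CPM against 0.0551 to 0.567 CPM. PPP2R2B, a phosphatase subunit (2.75), MRVI1, a substrate of the cGMP-dependent kinase in smooth muscle (1.51), and CGN, the tight junction protein cingulin (1.65), followed. Lower in AoV were LAMA1, a laminin chain of basement membranes (46.1 ± 13.5 against 116 ± 22.9 CPM, -1.36), PAPPA, a protease that cleaves IGF-binding proteins (21.2 ± 4.88 against 64.8 ± 9.39 CPM, -1.63), and FGL2 (-1.27), CARD6 (-1.53), RASSF8 (-1.07) and the adhesion molecule MPZL2 (-1.59). All of these kept their calls without each rabbit in turn.

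The right side of the heart offered the same comparison of an arterial with an atrioventricular valve, in other libraries of the same rabbits. In a model of all 4 valves of the Ctrl rabbits (7 AoV, 6 MV, 7 PV and 7 TV libraries), 1442 of 15013 genes were called between PV and TV (9.61%). Heart muscle genes were highest in TV by their median over libraries. The score of the 34 heart muscle genes had a median of 7.20 in TV (3.67 to 8.78) against 2.37 in PV (0.988 to 5.49), and the median PV minus TV difference of these genes was -3.78. The score of 14 atrial genes was 3.505 to 5.57 in TV and 1.44 to 2.11 in PV. The TV library of rabbit G stood apart from the other 6, with the lowest heart muscle score (3.67) and with 10.4 CPM of BGLAP (others 0.120 to 0.635), 119.4 CPM of ACTA2 (others 21.9 to 35.4) and 40.6 CPM of MYL4 (others 436.8 to 1287). The right side is therefore given with and without rabbit G, which had no MV library, and the part of heart muscle in it was not tested. Of the 218 lower DEGs between AoV and MV 84.9% had the same direction between PV and TV (87.2% without G). Of the 830 higher ones 21.1% did, but 51.2% without G, against 35.6% and 48.9% of all genes. Sorted by whether the valves overlapped on the left, 48 of the 64 higher DEGs without overlap had the same direction on the right, where 31 were called in it and 6 in the opposite direction. Of the 766 with overlap 127 had the same direction, and 28 were called in it and 25 in the opposite one. Without G, 50 of the 64 and 375 of the 766 had the same direction, with 37 and 47 called in it and 7 and 19 in the opposite one. Of the lower DEGs, 86 of 94 without overlap had the same direction and 56 were called in it, against 99 and 48 of 124 with overlap, and none was called in the opposite direction with or without G. The sorting used the left libraries alone.

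Among the genes shared by the arterial valves was ISL1, at 9.04 to 13.5 CPM in PV and 0 to 0.438 CPM in TV. HOXA2 was at 2.43 to 5.77 CPM in PV and 0 to 0.125 CPM in TV. MYH11 (PV minus TV 1.84), ACTA2 (2.38), BGLAP (2.80), BMP6 (1.41), FBN2 (1.401) and PPP2R2B (2.45) were also called higher in PV. Shared by the atrioventricular valves were TBX5, at 36.1 to 109 CPM in TV and 0.0601 to 2.57 CPM in PV, TCF21 (-2.80), MMRN1 (-5.83), CCL21 (-5.46), EBF2 (-3.96), EPYC (-2.38), LAMA1 (-2.05) and PAPPA (-2.02). All of these were also called without rabbit G. Over the smooth muscle list the median PV minus TV difference was -0.07, against 0.69 between AoV and MV. Of its members, KCNMB1 (2.27) and Tpm2 (0.79) were called higher in PV with all rabbits. LMOD1 was called only without rabbit G (1.24, edgeR adjusted p = 0.00913, against 0.92 and 0.0759 with it). MYOCD was lower in PV without passing (-1.25, edgeR adjusted p = 0.0519). For NGFR (1.63, edgeR adjusted p = 0.075), COL11A2 (0.90, edgeR adjusted p = 0.29), FGFR4 (0.74, edgeR adjusted p = 0.36) and NKX6-1 (0.59, edgeR adjusted p = 0.68), PV and TV did not pass with all rabbits, and neither did the test of the difference between the sides (edgeR adjusted p = 0.196, 0.0672, 0.232 and 0.0714). In TV of rabbit G, NGFR was at 10.2 CPM (others 0.250 to 1.20), COL11A2 at 15.6 CPM (others 1.39 to 1.92), FGFR4 at 101.7 CPM (others 2.81 to 9.32) and NKX6-1 at 2.24 CPM (others 0 to 0.125). Without rabbit G, NGFR (2.33, edgeR adjusted p = 0.00355), COL11A2 (1.46, edgeR adjusted p = 0.0486) and FGFR4 (1.34, edgeR adjusted p = 0.0182) were higher in PV than in TV, and NKX6-1 was not called (2.03, edgeR adjusted p = 0.133).

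**Figure D5:**
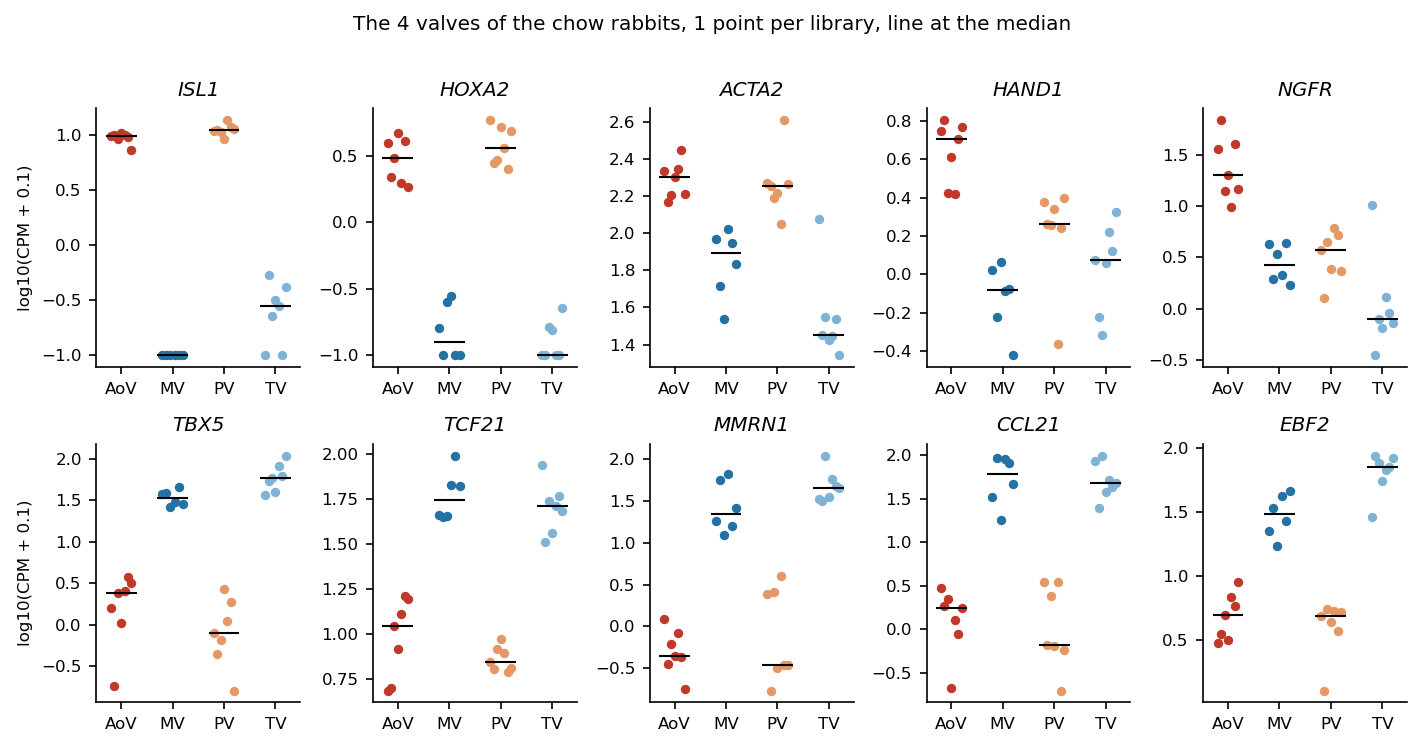
Levels of 10 genes on the log10(CPM + 0.1) scale in the 4 valves of the Ctrl rabbits, 1 point per library with a line at the median. ISL1 and HOXA2 were high in AoV and PV and near 0 in MV and TV, and TBX5, TCF21, MMRN1, CCL21 and EBF2 were higher in every MV and TV library than in any AoV or PV library.

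The difference between the sides was tested itself, as AoV minus MV against PV minus TV, and 1218 of 15013 genes passed at an adjusted p under 0.05 (8.11%, and 3.92% without rabbit G). They included 170 of the 1048 DEGs, 160 of them with the larger difference on the left, and 96 DEGs passed without G. HAND1 was 1.74 ± 0.687 CPM in PV and 1.11 ± 0.567 CPM in TV, and its excess in the arterial valve was larger on the left (difference 1.92, SE 0.55, edgeR adjusted p = 0.0412), a call that was lost without G (1.98, edgeR adjusted p = 0.0686). LGR6 was higher in AoV than in MV but lower in PV (0.240 ± 0.226 CPM) than in TV (2.00 ± 1.04 CPM), a difference of 5.79 (SE 0.87, edgeR adjusted p = 0.0024). Of the endothelin receptors, EDNRA was lower in PV than in TV (-1.51), opposite to the left side (difference 2.25, edgeR adjusted p = 0.00282), and EDNRB was 28.1 CPM in PV and 27.3 CPM in TV (difference -1.59, edgeR adjusted p = 0.0198). MPZL2, EFEMP1, HTR4 and TNFRSF11B were lower in AoV than in MV with no called difference between PV and TV, and the test of the sides passed for each of them (left minus right differences of -1.29, -1.66, -1.08 and -1.12). VCAN, which was not called between AoV and MV, was 6631 ± 1058 CPM in PV and 3863 ± 925 CPM in TV (0.79), and its difference between the sides passed (-1.09, edgeR adjusted p = 0.0107). Among the genes shared by both sides, EBF2 passed with the larger difference on the right (1.41, edgeR adjusted p = 0.0276). ISL1 also passed (4.47, edgeR adjusted p = 0.0221), but with 0 counts in MV its size depends on the prior count. Of the genes named here for the test of the sides, HAND1 alone lost its call without rabbit G.

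The same comparison of AoV with MV was then made in the rabbits of the other treatments, which share no animal with Ctrl. These were given vitamin D2 for 15 days (25000 U a day, scaled to body weight) and ate a diet with 5% lard (Lard, 7 pairs) or 0.3% cholesterol (CHT, 6 pairs). IR/CHT rabbits (7 pairs) were treated like CHT rabbits and their heart was irradiated at mid protocol, with 24 Gy aimed at the aortic valve and thoracic aorta. In Lard rabbits 503 of 14148 genes were called (3.56%), in CHT rabbits 302 of 14277 (2.12%), and in IR/CHT rabbits 3539 of 14147 (25%). Of the Ctrl DEGs that were tested there, 1019 of 1038 had the same direction in Lard (98.2%), 802 of 1033 in CHT (77.6%) and 54.6% of 1000 in IR/CHT, against 68.7%, 58.7% and 53.8% of all genes. Called in the same direction were 253, 109 and 211, and called in the opposite direction 0, 0 and 134. In Lard the median log2 fold change was 0.53 over the 826 higher and -0.84 over the 212 lower Ctrl DEGs tested. The medians of the higher and lower ones were 0.15 and -0.58 in CHT, and 0.0051 and -1.01 in IR/CHT. In IR/CHT 50.1% of the higher and 71.6% of the lower ones had the same direction. A direct test of the valve difference between Ctrl and Lard called 0 of 15189 genes by edgeR (smallest adjusted p = 0.459, 1582 at an unadjusted p under 0.05), and 0 of 16123 in a model of all 4 treatments (smallest 0.197, 3040 unadjusted).

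The counts were also taken by whether the Ctrl valves overlapped. Of the 64 higher ones, 61 of 63 tested in Lard, 59 of 63 in CHT and 40 of 58 in IR/CHT were higher in AoV, and of the 94 lower ones 89 of 90, 83 of 91 and 76 of 90 were lower. For the 766 higher DEGs with overlap the shares were 98.2% of 763, 74.7% of 756 and 48.6% of 734. MYH11, the strongest smooth muscle gene on chow, was not called in Lard (1.75, edgeR adjusted p = 0.13) or CHT (-0.17, edgeR adjusted p = 0.85) but in IR/CHT (2.05, edgeR adjusted p = 0.0065). BGLAP was called in Lard (3.39) and CHT (3.12) with differences close in size to that on chow, and its difference in IR/CHT was 0.13 (edgeR adjusted p = 0.83). FBN2 was higher in AoV in Lard (1.07) and lower in IR/CHT (-0.73, edgeR adjusted p = 0.019).

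In all, 71 genes were called in the same direction in each of the 4 treatments, 17 higher in AoV and 54 lower, and 57 of them were also called in that direction between PV and TV. The higher ones were led by ISL1 and PPP2R2B (Ctrl 2.75, Lard 2.70, CHT 2.02, IR/CHT 1.67), and with smaller differences included CILP (1.60, 1.76, 1.51 and 1.23), MYOCD (1.56, 1.97, 0.90 and 0.84), ACTA2 (1.47, 1.42, 0.695 and 1.02), KCNMB1, LOXL3 and ACAN. The lower ones were led by MMRN1 (-6.28, -5.49, -6.83 and -4.71), CCL21 (-5.62, -5.58, -6.35 and -4.48), FGF7, a growth factor for epithelium (-4.66, -3.90, -3.68 and -2.50), TBX5 (-4.19, -5.67, -5.72 and -6.63) and the angiopoietin ANGPT4 (-2.81, -3.16, -3.27 and -3.64). FGF7 was at 4.08 to 11.3 CPM in MV and 0.0552 to 1.09 CPM in AoV of the Ctrl pairs. EBF2, EPYC, TCF21, BMX, KERA, FLT4, LAMA1, TBX18, ADAMTS19, NR2F2, COL6A6 and the prostaglandin receptor PTGER3 were further members. FGF7, ANGPT4 and PTGER3 were named after their values were seen.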

How the data were processed

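Total RNA of dissected valves was made into stranded libraries (SMARTer Pico kit) and sequenced in pairs. Per the study's methods, the authors aligned the reads to the rabbit genome OryCun2.0 with the nf-core/rnaseq workflow and deposited raw counts of read pairs per Ensembl gene in 2 tables, 1 for each plate. Symbols are those of the tables, and positions are not used here. Library groups came from the labels and animal numbers from the column names.

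Genes were filtered with filterByExpr, scaled by TMM and tested with edgeR 4.0.16 (R 4.3.3), by robust quasi-likelihood with the rabbit as a block in 6 pairs, as libraries of the same rabbit deviated together (r = 0.262 to 0.570, median 0.426, against a median of -0.134 for other rabbits). Calls needed an adjusted p under 0.05 and a fold over 1.5. Log2 fold changes in brackets are AoV minus MV unless named otherwise, errors are SD over 6 libraries or SE of the fit, and scores used a prior count of 2. Intervals of count ratios and floors of 3 counts cover counting error only. The tests were checked on simulated data. No pair of libraries agreed within sampling noise. Alternatives included no block, DESeq2 1.42.0, limma 3.58.1, other scaling, no filter and leaving out each rabbit.

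Named were the 12 higher and 12 lower genes of smallest p with 1 direction in every pair, up to 4 DEGs of each list, a fixed set, and up to 6 genes for each difference between comparisons. Further list members were named after their values were seen, and a few genes are not reported here. The members and lists were chosen with earlier results of these data known.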

Additional observations from a re-analysis of the deposited data

Results flagged for a closer look

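Of the groups of 6 or 7 libraries examined for a library far from the others, 14 held one (5.34%), and chance gives about 1 in 20 groups. Rabbit A was the distant library for COL11A2 in AoV (141.8 CPM, others 11.9 to 57.9), RASSF8 in AoV (23.74, others 37.5 to 46.7), UPK3B in AoV (10.34, others 0.158 to 4.49), TBX2 in AoV (54.67, others 2.96 to 24.4) and PAPPA in MV (45.89, others 66.4 to 70.5). Rabbit E was the distant library in MV for STAB1 (259.7 CPM, others 59.9 to 115.0), LMOD1 (47.23, others 13.0 to 23.1), FZD7 (6.138, others 1.49 to 2.58) and KCNA5 (5.56, others 2.19 to 2.90). Rabbit C stood apart in the macrophage score of AoV (3.434, others 4.245 to 4.72) and NPPA in AoV (6.648 CPM, others 0 to 1.66). Rabbit F stood apart in AoV for ISL1 (7.596 CPM, others 9.55 to 10.7) and MYL2 (1014 CPM, others 11.0 to 353.5), and rabbit D for EDNRB in AoV (15.27 CPM, others 5.43 to 9.45).

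The 6 genes with the smallest p in the test of the left against the right side of the heart, AoV minus MV less PV minus TV on the log2 scale, were ARFGEF3 (1.854), POPDC2, a membrane protein of heart muscle (3.238), FHL2 (1.956), NETO2 (-1.747), the neurofilament gene NEFL (6.207) and the homeobox gene MSX2 (1.743). NEFL was 93.3 CPM in TV, against 0.63 to 5.65 CPM on average in the other valves, POPDC2 was 71.2 CPM in TV and 10.5 to 22.6 CPM elsewhere, and FHL2 was 102.3 CPM in TV and 35.4 to 57.0 CPM elsewhere. ARFGEF3 was higher in AoV than in MV (47.9 and 23.8 CPM) but lower in PV than in TV (17.6 and 32.2 CPM), and NETO2 showed the reverse (18.9 and 32.5 CPM on the left, 26.5 and 13.9 CPM on the right). All of these differences passed by edgeR (adjusted p up to 0.00187, and up to 0.00259 without rabbit G, whose TV library stood apart). Heart muscle RNA was also higher in TV than in PV on average (MYL4 772 CPM in TV and 0.868 CPM in PV, MYL2 1062 and 149 CPM), and the part of heart muscle in these differences was not tested.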

How the results depend on the processing

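The number of DEGs between AoV and MV of Ctrl rabbits moved by over 1.5 times in most alternatives. The following pairs of percents are genes higher and lower in AoV among genes tested, 5.93% and 1.56% in the reported fit. Without a rabbit block the number was 163 (0.5796% and 0.5726%), with DESeq2 2371 (10.87% and 3.839%), in a model of all 5 Ctrl tissues 550 (1.626% and 1.952%), with the rabbits that had both libraries on 1 plate 162 (0.7232% and 0.4368%) and with the heart muscle score as a covariate 371 (1.842% and 0.8069%). Settings added after the data were seen gave 2921 with the endothelial score (12.97% and 7.883%), 29 without rabbits D and F (0.09889% and 0.106%), and 3.684% and 2.578% with limma and the rabbit as a random effect. Leaving out 1 rabbit at a time gave 77 (without F) to 1372 (without D), with 0.307% to 8.04% higher and 0.2342% to 1.73% lower. The share of higher genes among DEGs was 79.2% and fell to 50.31% without the block, 45.45% with all tissues, 62.35% on 1 plate, 62.2% with the endothelial score, 48.28% without D and F, 58.84% with limma, and 55.13% to 62.35% without B, E or F. The cause was not tested. No named gene changed direction after a call, and 13 of 85 named DEGs (among them ISL1, TCF21, MMRN1, CCL21, EBF2, EPYC, MYH11, BGLAP and NGFR) were called in all 16 alternatives, of which the fit on 1 plate is that without rabbit E.

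Without the rabbit block, 205 genes were called in Lard, 124 in CHT and 2235 in IR/CHT, and leaving out 1 rabbit gave 349 to 518, 213 to 282 and 3087 to 3659. The left against right test passed for 3.922% of genes (8.11% before) with the rabbits that had all 4 valves (without G) and for 2.287% without a filter on low counts, where more genes were tested. At these depths genes under about 1 CPM rest on few counts. With 6 pairs from 1 breed and sex, and marker levels of heart muscle and endothelium that differed between libraries, levels per cell could not be measured.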
